A study of Drosophila melanogaster with 12 samples.

Results

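The 2 Ago3 libraries of wild-type ovaries in this study, 1 from y w flies and 1 from w1118 flies, were compared transposon by transposon. They were chosen by their labels, and are 2 of the 12 immunoprecipitation libraries of the series, which cover the PIWI proteins Aub, Ago3 and Piwi. The study set flies whose Aub carries lysines in place of its methylated arginines (aubRK) against flies with a wild-type Aub transgene (aubWT). It compared a mutant of the arginine methyltransferase Capsuleen (csulRM50) with w1118, and also made libraries of wild-type y w. The y w and w1118 stocks have endogenous Aub and Ago3 and no transgene, and ovaries came from yeast-fed flies of 2 to 5 d. The y w flies carry the alleles y1 and w1, and their Ago3 was immunoprecipitated with the peptide antibody Ago3-380 of the Mourelatos laboratory. The w1118 flies carry the w allele of that name, and their Ago3 was immunoprecipitated with an antibody of the Siomi laboratory. The libraries were also made by different protocols with different 3′ adaptors, so stock, antibody and library method changed together and cannot be told apart. Neither library carried a random barcode, so PCR duplicates remain in both. With 1 library per stock no difference has a replicate check, and no p-value was computed.

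Ago3 is a PIWI protein of the germline that works with Aub in the ping-pong cycle. Aub, guided mostly by piRNAs antisense to transposons, slices transposon transcripts, and the cut ends are loaded into Ago3 as sense piRNAs. Ago3 in turn slices antisense precursors and supplies Aub. Piwi, by contrast, acts in nuclei and is the PIWI protein of the somatic follicle cells, where antisense piRNAs, many of them from the flamenco locus, target gypsy-type retroviral elements without ping-pong.

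Read copies on consensus transposons numbered 35451651 in y w and 9086040 in w1118, a depth ratio of 3.90. Counts fell on 126 transposons in y w and on 124 in w1118, of 126 in the files, and on each library the smallest share that 3 counts can show was 8.46e-06% in y w and 3.30e-05% in w1118. Counts are given as CPM (counts per 1000000), scaled to the total on transposons of that library. They are not divided by element length, so levels are compared mainly between libraries. Ranks of elements and correlations across them also carry element length, which is common to both libraries. A read that matches several consensus sequences can be counted on each, which touches related elements such as TART-A, TART-B and TART-C or the Stalker elements. A consensus stands for all copies of an element and has no single genome position. Abundance was compared for 123 of the 126 names, those averaging 100 counts or more in the 12 libraries. Penelope, Helitron and BS4 fell short. The sense strand made up 48.1% of the y w Ago3 reads and 41.9% of the w1118 Ago3 reads, against 21.6% in the Aub library of w1118. Ago3 also had the larger sense share in aubWT (56.2%, Aub 29.8%) and csulRM50 (47.0%, Aub 31.5%), but not in aubRK (31.1%, Aub 36.5%). Strand share alone therefore cannot check the Ago3 label.

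The same elements dominated both libraries. Of the 10 most abundant transposons in each, 8 were shared, and of the 20 most abundant, 13 were. The 10 took 42.0% of read copies in y w and 45.1% in w1118. R1A1-element, a non-LTR retrotransposon that inserts into ribosomal DNA, made up 8.20% in y w and 4.28% in w1118. Max-element, an LTR retrotransposon of the BEL/Pao group, made up 5.09% in y w and 6.58% in w1118, and roo, of the same group, 4.95% in y w and 4.31% in w1118. HeT-A, a non-LTR element that maintains chromosome ends, made up 4.22% in y w and 3.37% in w1118. The others shared among the top 10 were F-element, GATE, Rt1a and Rt1b. Across the 123 transposons log2 abundance correlated at 0.888 (Spearman) and 0.933 (Pearson), a description over transposons, which are not replicates and share 1 pair of libraries. Abundance differed by no more than 2-fold for 85 of the 123 (69.1%).

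**Figure D1:**
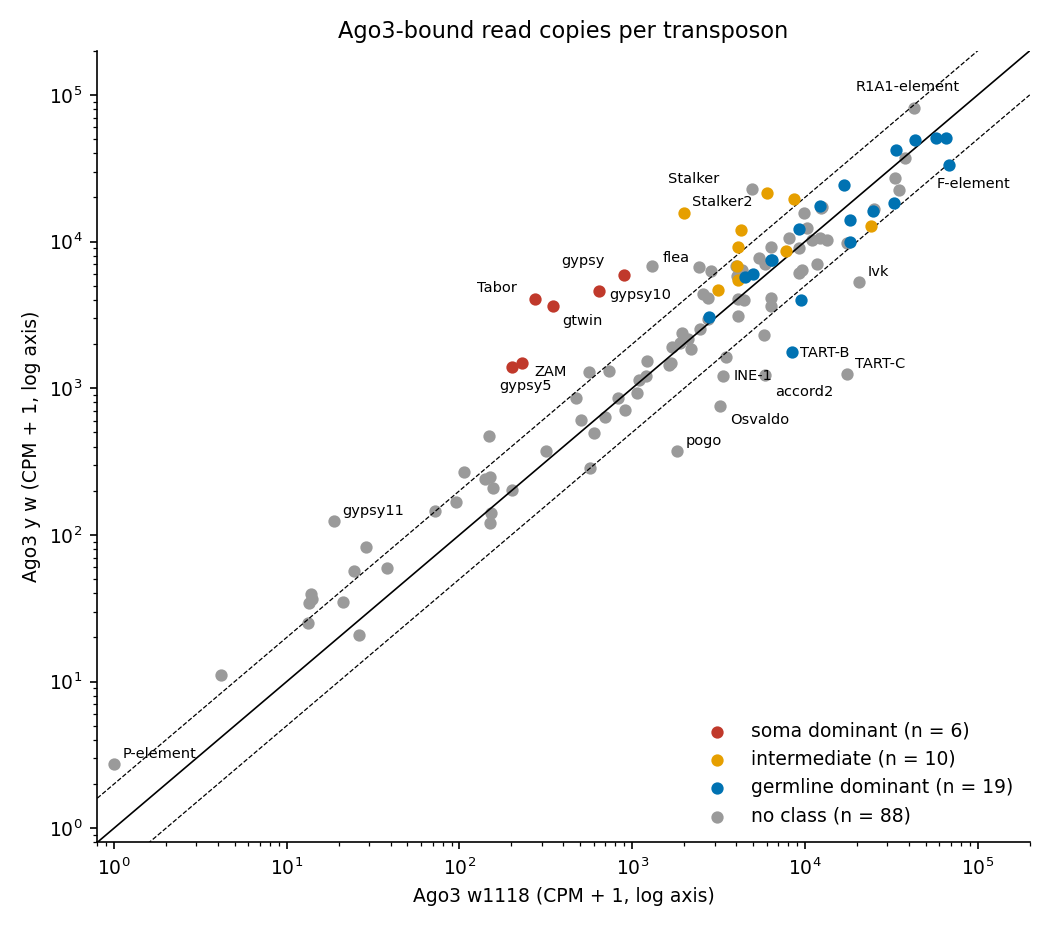
Ago3-bound read copies of each transposon in y w (vertical axis) and w1118 (horizontal axis), as CPM + 1 on log axes, for 123 transposons coloured by the class given in the files. The solid line marks equal levels and the dashed lines 2-fold. All 6 soma-dominant elements lie above the upper dashed line, and TART-C lies farthest below the lower one.

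Over 2-fold differences were found for 38 of 123 transposons (30.9%). Of these 27 were higher in y w (22.0%) and 11 were lower (8.94%). Differences are y w minus w1118 in log2(CPM + 1), which understates the change of scarce elements. The median over all 123 was 0.25 and the quartiles were -0.30 and 0.82, so the level of a typical element was itself shifted. Measured from that median, 21 were over 2-fold higher and 18 lower, and the same split of 21 and 18 was obtained with both other scalings. When identical reads were counted once (called entries), 12 were higher and 14 lower. Of the 27 higher by read copies, 12 were also over 2-fold by entries, namely 412, P-element, Stalker, Stalker2, Stalker4, Tabor, ZAM, flea, gtwin, gypsy, gypsy10 and gypsy5. P-element, with 62 read copies in y w and 0 in w1118, passed the filter only through other libraries of the series. With the filter set on these 2 libraries alone it dropped out, and 26 of 122 were higher. Of the 11 lower, 10 were, all but F-element.

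Elements that the files class as soma dominant were all higher in y w. The files class 6 elements that passed the filter as soma dominant (Tabor, gtwin, gypsy, gypsy10, gypsy5 and ZAM), and all 6 were over 2-fold higher, with a median difference of 2.82 against 0.25 over all transposons. Over all transposons 22.0% were over 2-fold higher. Together the 6 took 2.11% of read copies in y w and 0.259% in w1118. Tabor had 4082 CPM in y w and 273 CPM in w1118, a log2 difference of 3.90 (95% counting interval 3.85 to 3.96) and of 3.65 relative to the median. Gtwin had 3630 CPM in y w and 349 CPM in w1118 (3.37, and 3.12 relative to the median). The retrovirus-like gypsy, which encodes an envelope protein, had 5900 CPM in y w and 894 CPM in w1118 (2.72). Gypsy10 had 4592 CPM in y w and 641 CPM in w1118, and ZAM, another envelope-bearing element, 1484 CPM in y w and 228 CPM in w1118. Gypsy5 had 1396 CPM in y w and 200 CPM in w1118.

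The difference lay mostly on the antisense strand. Over the 6 elements the median log2 difference was 3.39 for antisense and 0.98 for sense reads. Antisense reads of Tabor stood at 3852 CPM in y w and 156 CPM in w1118, whereas its sense reads stood at 230 CPM in y w and 117 CPM in w1118. For gypsy10, antisense reads were at 4312 CPM in y w and 401 CPM in w1118, and sense reads at 280 CPM in y w and 240 CPM in w1118. Gypsy and gtwin were over 2-fold higher on the sense strand too. Sense reads of gypsy stood at 1863 CPM in y w and 400 CPM in w1118, and those of gtwin at 573 CPM in y w and 170 CPM in w1118. The pooled sense share of the 6 was 15.3% in y w and 41.9% in w1118. Each of the 6 had a sense share over 10 points lower in y w, beside 26.4% of the 121 transposons compared. Read copies of the class in Piwi aubWT, 1 of the 3 Piwi libraries of the series, were 1.11% sense and made up 4.93% of that library. The part of follicle cell piRNAs in the y w values was not tested.

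A list of 7 follicle cell elements overlaps this class and was chosen with earlier results of these data known. All 7 had counts in both libraries, and together they made up 2.20% of y w and 0.602% of w1118. Of the 7, 5 were over 2-fold higher in y w by read copies and 0 were lower, beside 22.0% and 8.94% of all transposons. The exceptions were Idefix, with 4679 CPM in y w and 3132 CPM in w1118, and Tirant, with 287 CPM in y w and 570 CPM in w1118. By entries Tirant was over 2-fold lower in y w, at -2.33. Tirant also went the other way by strand, with a sense share of 65.5% in y w and 32.2% in w1118.

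LTR elements outside that class were higher about as often as transposons in general. Of 53 listed LTR elements outside it 11 were over 2-fold higher in y w, beside 22.0% of all transposons, and 3 were lower, with a median of 0.35. With the 6 soma-dominant elements included, 17 of 59 were higher and 3 lower (median 0.41). Stalker2 had 15771 CPM in y w and 1994 CPM in w1118 (2.98), and its relative Stalker had 22695 CPM in y w and 4918 CPM in w1118 (2.21). Flea had 6781 CPM in y w and 1299 CPM in w1118 (2.38), with both strands higher alike: its sense share was 47.8% in y w and 48.1% in w1118. Gypsy11 was scarcer, at 124 CPM in y w and 17.8 CPM in w1118. The element 412 differed in opposite directions by strand. Antisense reads of 412 stood at 13783 CPM in y w and 1691 CPM in w1118, and sense reads at 5595 CPM in y w and 6903 CPM in w1118. The intermediate class, to which 412 and Stalker2 belong, had 5 of 10 members higher and 0 lower (median 0.96) and made up 11.6% of y w and 6.82% of w1118.

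**Figure D2:**
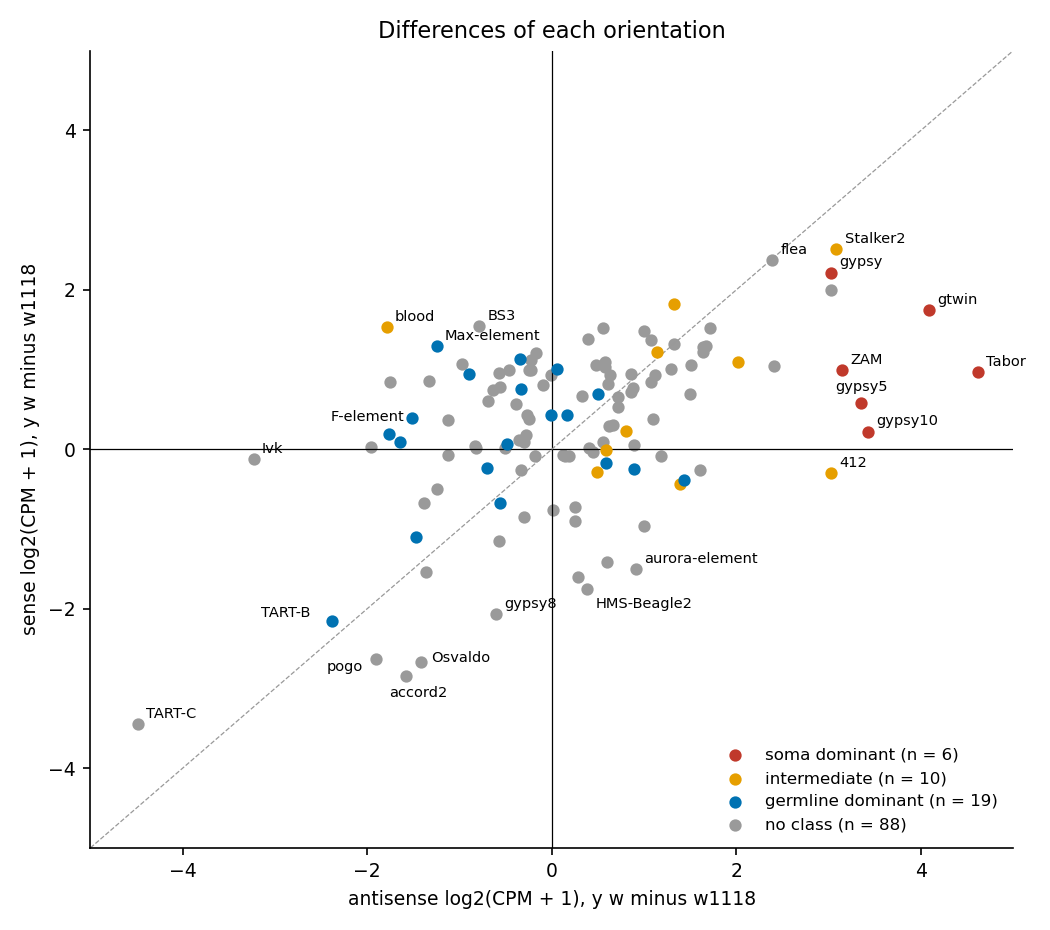
Difference of sense reads (vertical axis) against difference of antisense reads (horizontal axis), each as log2(CPM + 1), y w minus w1118, for 123 transposons coloured by class. The dashed diagonal marks equal differences of both strands. Tabor, at 0.97 for sense and 4.62 for antisense, and 412 lie far to its right, and Ivk and blood far to its left.

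The element furthest below its w1118 level in y w was telomeric. HeT-A, TAHRE and the TART elements transpose to chromosome ends in place of telomerase. TART-C had 1254 CPM in y w and 17498 CPM in w1118, a log2 difference of -3.80 (counting interval -3.82 to -3.79). TART-B had 1753 CPM in y w and 8385 CPM in w1118 (-2.26). TART-A, to which the files give the same FlyBase identifier as the other two (FBgn0004904), had 16935 CPM in y w and 12331 CPM in w1118 (0.46), HeT-A had 42234 CPM in y w and 33672 CPM in w1118 (0.33), and TAHRE had 13934 CPM in y w and 18169 CPM in w1118 (-0.38). So 2 of 5 telomeric elements were over 2-fold lower and 0 higher, beside 8.94% and 22.0% of all transposons. Summed, the TART elements made up 1.99% of y w and 3.82% of w1118, a log2 difference of -0.94, smaller than that of TART-B or TART-C alone. All 5 telomeric elements had a higher sense share in y w by read copies. Of the 5, 2 were higher by over 10 points, beside 30.6% of the 121 transposons compared. The pooled share was 73.6% in y w and 62.1% in w1118. By entries TART-B alone went the other way, with a sense share of 47.5% in y w and 49.9% in w1118.

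The remaining 9 lower elements came from several groups. Ivk, a non-LTR retrotransposon, had 5259 CPM in y w and 20595 CPM in w1118 (-1.97). The difference lay in its antisense reads, at 1789 CPM in y w and 16803 CPM in w1118, whereas its sense reads stood at 3470 CPM in y w and 3792 CPM in w1118. F-element, also non-LTR and the most abundant transposon of w1118, behaved alike, with 15486 antisense CPM in y w and 52528 in w1118, and 17913 sense CPM in y w and 15680 in w1118. The LTR elements accord2 and gypsy8 leaned the other way. Sense reads of accord2 were at 512 CPM in y w and 3685 CPM in w1118, and antisense reads at 719 CPM in y w and 2147 CPM in w1118. Gypsy8 had 2298 CPM in y w and 5819 CPM in w1118, and only its sense reads were over 2-fold lower. Osvaldo had 759 CPM in y w and 3219 CPM in w1118 (-2.08), McClintock 1622 CPM in y w and 3496 CPM in w1118 (-1.11), and INE-1, a short element spread over the genome in many copies, 1208 CPM in y w and 3372 CPM in w1118 (-1.48). Pogo, a DNA transposon, had 372 CPM in y w and 1822 CPM in w1118 (-2.29).

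The elements of hybrid dysgenesis, which cause sterility when a father's transposon meets a mother without the matching piRNAs, differed among themselves. I-element, the trigger of I-R dysgenesis, had 4014 CPM in y w and 9462 CPM in w1118 (-1.24). Hobo had 1849 CPM in y w and 2195 CPM in w1118 (-0.25), with a sense share of 47.2% in y w and 77.7% in w1118. P-element, which laboratory stocks of the M type lack, had 62 read copies in y w and 0 in w1118. Against a floor of 3 counts in w1118 its level was at least 5.30-fold higher in y w, at 1.75 CPM. In the other Ago3 libraries P-element had 41.5 CPM in aubWT, 17.8 CPM in aubRK and 0.117 CPM in csulRM50. The aub transgenes of aubWT and aubRK were introduced by P-element-based transgenesis, and the part of vector sequence in their values was not tested. Whether reads of these other Ago3 libraries contributed to the 62 copies in y w was not tested either.

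The other lists are read beside the 22.0% of all transposons that were higher and the 8.94% that were lower. The rDNA elements had 1 of 3 over 2-fold higher in y w, R1-2, with 145 CPM in y w and 71.0 CPM in w1118 (1.02, just past the limit), while R1A1-element, at 0.94, was just under it. On the low side F-element (-1.03) was just past the limit and Tirant (-0.99) just under it. By entries F-element was at -0.41 and Tirant at -2.33. None of the 3 copia-group or 6 BEL/Pao elements was over 2-fold. Of 9 Tc1/mariner elements 3 were higher (Bari2, S2 and mariner2) and 1 lower, and of 8 transib and hopper elements 2 were higher (transib1 and transib4). None of these higher elements was over 2-fold by entries. Their entry values were -0.30 for Bari2, -0.02 for S2, -0.16 for mariner2, 0.11 for transib1 and 0.03 for transib4. R1-2 was at -0.10 by entries. The non-LTR elements had 2 of 39 higher and 5 lower (median 0.02), and the germline-dominant class 0 of 19 higher and 3 lower (median 0.15). That class made up 37.5% of y w and 44.4% of w1118.

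Levels in other libraries of the series were set beside these values. Ago3 aubWT and aubRK flies express HA-tagged Aub from a germline nos-Gal4 driver in an aub QC42/HN2 background without endogenous Aub, and their Ago3 was processed with the antibody and library method of y w. The adaptor of aubRK was that of y w, but the adaptor of aubWT carried the 8-nt barcode and its PCR duplicates were removed, so that its read copies equalled its entries, while y w had 7.60 copies per entry. Values of aubWT are thus deduplicated and those of y w are not, and the part of this in their differences was not tested. Ago3 csulRM50 was processed with the antibody, library method and adaptor of w1118. Of the 27 elements higher in y w, the aubWT level was nearer to y w for 7, the aubRK level for 23, and the csulRM50 level for 4 (Stalker4, gypsy, invader3 and micropia). Of the 11 lower elements, the aubWT level was nearer to y w for 9, the aubRK level for 9 and the csulRM50 level for 6. The corresponding numbers over all 123 transposons were 58, 77 and 43. Tabor had 1095 CPM in aubWT, 10677 CPM in aubRK and 582 CPM in csulRM50. Gypsy had 510 CPM in aubWT and 5629 CPM in aubRK, and in csulRM50 5622 CPM, close to its y w level. TART-B had 193 CPM in aubWT, 924 CPM in aubRK and 58662 CPM in csulRM50.

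**Figure D3:**
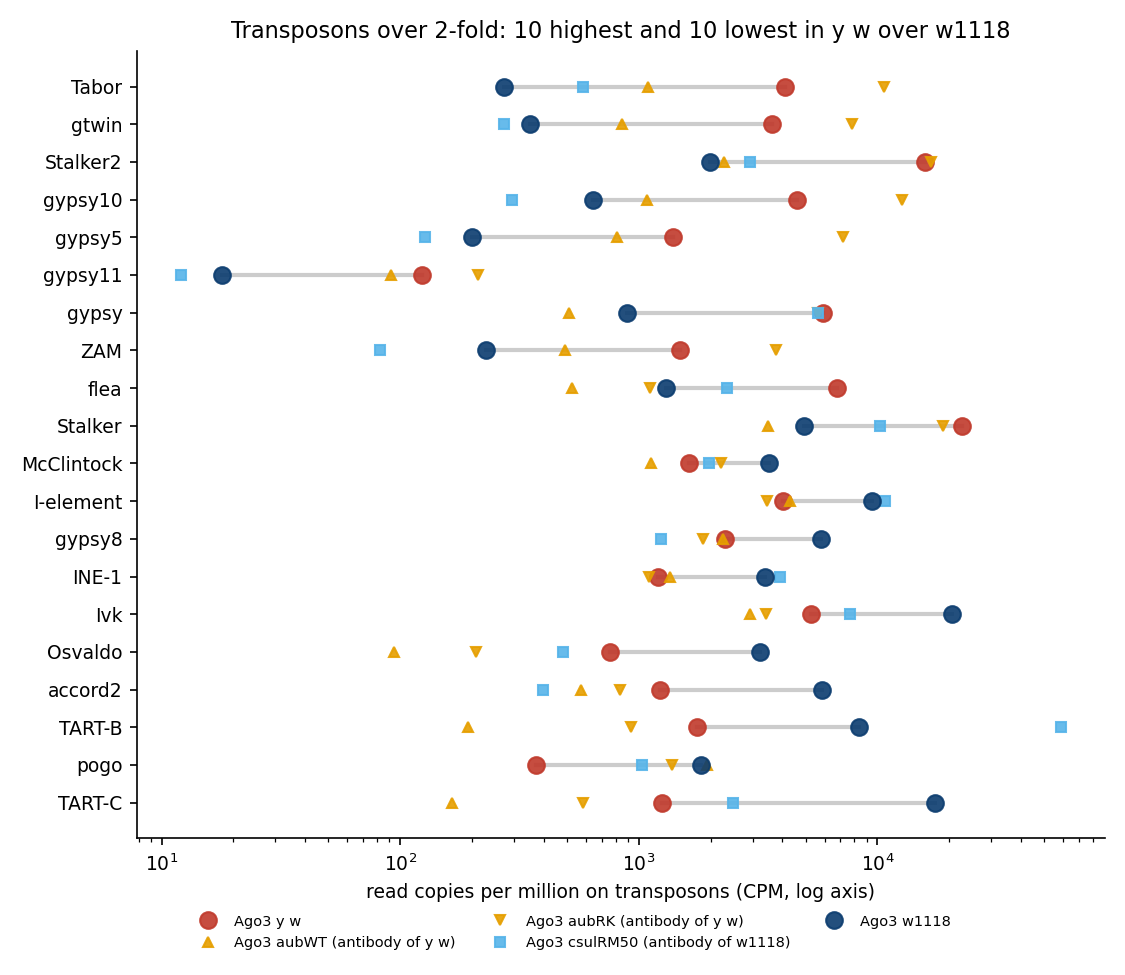
Read copies (CPM, log axis) of the 10 elements furthest above and the 10 furthest below 2-fold in Ago3 y w over Ago3 w1118, with 1 point per library. Red circles stand for y w, dark blue circles for w1118, orange triangles for aubWT (up) and aubRK (down), and light blue squares for csulRM50. TART-B reaches 58662 CPM in csulRM50, outside the range of y w and w1118.

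Pairs of libraries that share an antibody also differed in abundance. Over the same 123 transposons, 68 were over 2-fold between the deduplicated Ago3 aubWT and Ago3 y w, 35 between Ago3 aubRK and Ago3 y w, and 50 between Ago3 csulRM50 and Ago3 w1118, beside the 38 between y w and w1118. These pairs share libraries and differ in genotype. The Aub and Ago3 libraries of w1118 were much nearer to each other, with 3 transposons over 2-fold and a Spearman correlation of 0.990. No Aub library of y w is analysed here.

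By rank correlation across transposons, strand bias was less alike than abundance. Abundance also carries element length, which sense share does not, so the 2 correlations are of unlike measures. The pooled sense share was 48.1% in y w (Wilson 95% interval 48.07 to 48.10) and 41.9% in w1118 (41.87 to 41.93), a difference of 6.18 points, but by entries it was 44.4% in y w and 44.0% in w1118. Sense shares were compared for the 121 transposons that reached 50 read copies in each library, and 69 differed by over 10 points (57.0%), with 37 higher in y w (30.6%) and 32 lower (26.4%). These cancelled in the median difference, which was 0.12 points. The sense shares of the 2 libraries were only weakly related across the 121 transposons, at 0.216 (Spearman) and 0.271 (Pearson). The widest Wilson interval of a single share reached 9.14 points to either side.

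Sense shares were above 50% in both libraries for 26 transposons, below it in both for 41, above it only in y w for 31 and only in w1118 for 23. HeT-A was sense-rich in both, at 79.7% in y w and 74.3% in w1118. The LTR retrotransposon 297 was antisense in both, at 10.8% in y w and 9.56% in w1118, as was roo, at 15.7% in y w and 13.4% in w1118. Jockey, another non-LTR element, was sense-rich in both, at 71.6% in y w and 75.2% in w1118.

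The direction of the strand difference was unequal between kinds of element, while over all 121 transposons 61 had a higher and 60 a lower sense share in y w. Of the 121, 30.6% were over 10 points higher and 26.4% over 10 points lower. Of 39 non-LTR retrotransposons 33 had a higher sense share in y w, 20 of them by over 10 points, and 6 a lower one, 1 of them (R2-element) by over 10. Their median difference was 10.6 points, and their pooled sense share was 61.1% in y w and 45.2% in w1118. Of 59 LTR retrotransposons 18 had a higher share in y w, 10 by over 10 points, and 41 a lower one, 26 by over 10. Their median difference was -8.72 points, although their pooled share was 36.8% in y w and 36.9% in w1118. DNA transposons were divided, with 9 higher and 10 lower of 19. Within the LTR group, all 3 copia-group elements were over 10 points lower in y w, all 6 invader elements were lower (3 by over 10), and of 6 BEL/Pao elements 3 were over 10 points higher and 1 lower.

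The 5 widest gaps in each direction were as follows. Ivk had a sense share of 66.0% in y w and 18.4% in w1118, and G2, a Jockey-type non-LTR element, 66.3% in y w and 24.6% in w1118. Blood, an LTR retrotransposon, had 50.6% in y w and 9.29% in w1118. BS3, another non-LTR element, had 66.0% in y w and 27.7% in w1118, and Max-element 55.0% in y w and 17.4% in w1118. In the opposite direction, 412 had 28.9% in y w and 80.3% in w1118, the widest gap of the 121, and aurora-element had 41.9% in y w and 79.4% in w1118. Tabor had 5.64% in y w and 42.9% in w1118, gtwin 15.8% in y w and 48.7% in w1118, and HMS-Beagle2 20.3% in y w and 53.0% in w1118. Except for Ivk, 412, Tabor and gtwin, these 10 elements were within 2-fold in CPM.

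**Figure D4:**
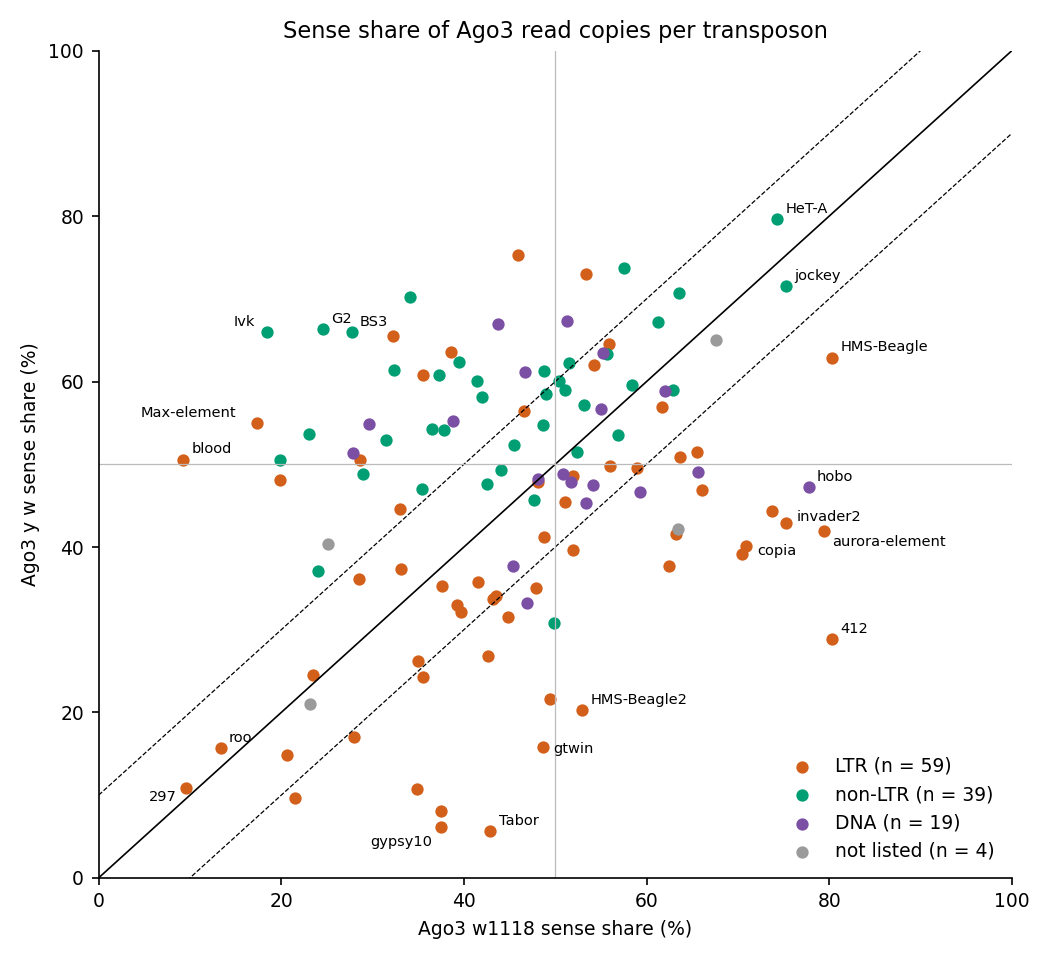
Sense share (%) per transposon in Ago3 y w (vertical axis) and Ago3 w1118 (horizontal axis) for the 121 transposons that reached 50 read copies in each, coloured by order. The solid line marks equal shares, the dashed lines 10 points and the grey lines 50%. Non-LTR elements lie mostly above the diagonal (33 of 39), and LTR elements mostly below it (41 of 59).

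Strand bias in each of the 3 other Ago3 libraries was closer to that of the wild type with the same antibody, in aubRK by a small margin in distance. Sense shares of Ago3 aubWT, which is deduplicated, had a Spearman correlation of 0.790 with those of y w over 123 transposons, and of -0.037 with those of w1118 over 121. Those of Ago3 csulRM50 had a correlation of 0.243 with y w and of 0.805 with w1118, each over 121. Ago3 aubRK had a correlation of 0.685 with y w and of 0.379 with w1118, but its shares were far from both, with 76 of 123 over 10 points from y w and 81 of 121 from w1118, and median absolute gaps of 14.7 points from y w and 15.8 points from w1118. Differences over 10 points numbered 41 of 123 between aubWT and y w and 37 of 121 between csulRM50 and w1118, beside the 69 of 121 between y w and w1118. Over all 121 transposons the aubWT share was nearer to y w for 93, the aubRK share for 75 and the csulRM50 share for 29. Of the 37 transposons with a higher sense share in y w, the aubWT share was nearer to y w for 32, the aubRK share for 12 and the csulRM50 share for 7. Of the 32 with a lower one, the aubWT share was nearer to y w for 24, the aubRK share for 30 and the csulRM50 share for 7. Ivk, for example, was 69.9% sense in aubWT and 18.7% in csulRM50, and 412 was 39.2% sense in aubWT and 68.3% in csulRM50. These are descriptions across transposons that share libraries. The antibody, the protocol and the origin of the stocks changed together in these pairs, and their parts were not tested.

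Abundance also depended on how duplicated reads were counted. Read copies per entry, the mean number of times each distinct read was seen, were 7.60 in y w and 7.37 in w1118 over all transposons. By element they ranged between 2.82 and 10.8 in y w and between 1.07 and 12.6 in w1118. Of the 27 elements higher in y w, 26 had fewer copies per entry in w1118, and 10 had under 1000 read copies there. The 27 were called on read copies, which rise with copies per entry, so the call itself favours this outcome. The shares over all 123 were not counted, and these numbers are not read as particular to the 27. Over all 123 the median difference was 0.25 by read copies and -0.13 by entries. Tabor had 6.09 copies per entry in y w and 1.85 in w1118, and its difference was 3.90 by read copies and 2.22 by entries. For 5 of the 27, all scarce, the difference was negative by entries, at -0.30 for Bari2, -0.02 for S2, -0.16 for mariner2, -0.10 for R1-2 and -0.44 for HB, a DNA transposon that had 55.3 CPM in y w and 23.4 CPM in w1118. Identical reads are merged in entries whether they are PCR duplicates or separate piRNA molecules, which neither library can tell apart.

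**Figure D5:**
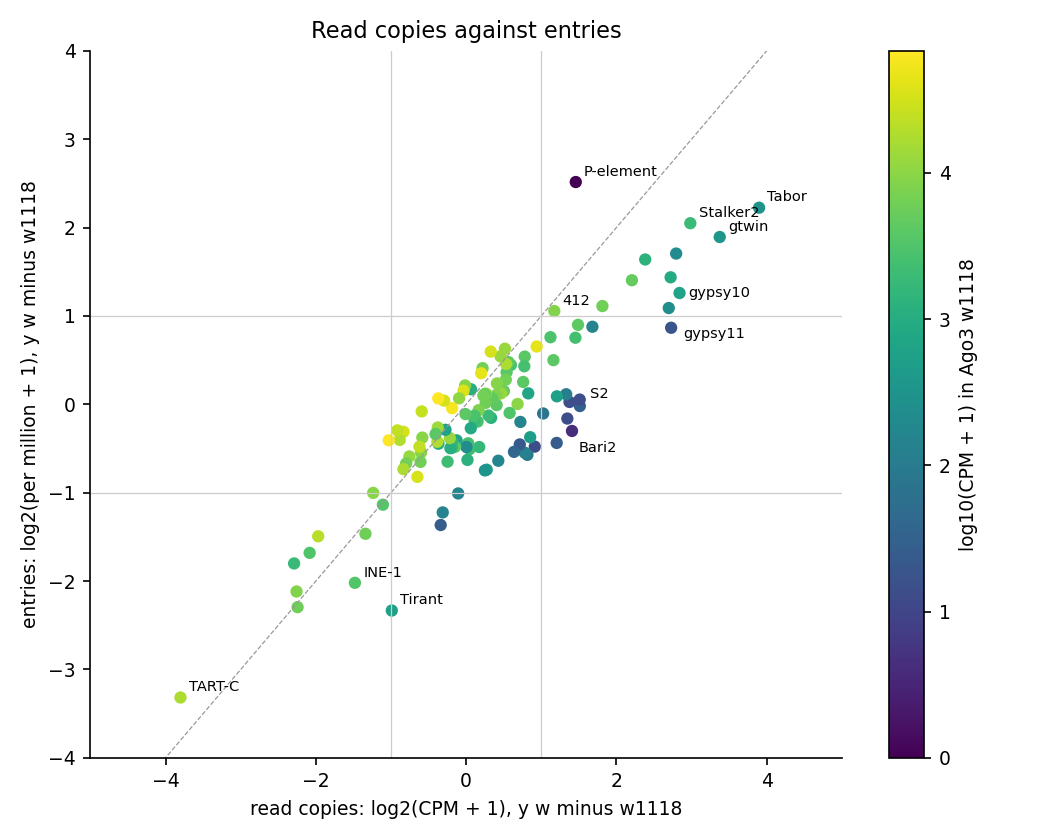
Difference between Ago3 y w and Ago3 w1118 by entries (vertical axis, log2 of entries scaled like CPM, + 1) against that by read copies (horizontal axis, log2 of CPM + 1), y w minus w1118, for 123 transposons coloured by their level in w1118. Grey lines mark 2-fold and the dashed line equal differences. Tabor and TART-C stay outside 2-fold on both axes, and Bari2 crosses 0.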

How the data were processed

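Small RNAs from Ago3 immunoprecipitates of y w and w1118 ovaries were analysed, 1 library each. The authors trimmed adaptors (cutadapt 2.3 in the submitters' processing notes), aligned reads end to end to FlyBase consensus transposons (STAR 2.4.2a), and deposited whole-number counts per transposon and orientation, without normalization. Each file gives read copies and entries (identical reads counted once), a reading of the 2 count columns from their names and values, since the sources used here do not define them. Neither library has the 8-nt barcode by which the authors removed PCR duplicates from others. Consensus sequences and lengths were not used here.

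Sense and antisense counts were added and divided by the library total on transposons to give CPM. Abundance was compared as log2(CPM + 1), y w minus w1118, for transposons that averaged 100 counts or more in the 12 libraries, with 2-fold as limit. Sense shares needed 50 read copies in each library, with 10 points as limit. Wilson 95% intervals and the floor of 3 counts cover counting error only. No test was run, since each stock had 1 library. The size factors of DESeq2 1.42.0 and the TMM factors of edgeR 4.0.16, in R 4.3.3, served as other scalings. Other alternatives were entries, a pseudocount of 10, other minimum counts, each orientation alone, the median over transposons and leaving out roo. Differences relative to the median, and leaving out the 6 soma-dominant elements, were chosen after seeing the data. The computation was tested on simulated data.

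Named are the 10 largest rises and 10 largest falls over 2-fold, the 5 largest rises and falls in sense share, the 10 most abundant elements, members of the lists, and members of counts of 5 or fewer. Stalker4, micropia, HB, 297, jockey, BS4, Helitron and Penelope were named after their values were seen. Not all names the rule allows are printed. The libraries and lists were chosen with earlier results of these data known.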

Additional observations from a re-analysis of the deposited data

How the results depend on the processing

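The number of transposons over 2-fold stayed within 1.5 times of 38 in every alternative run, from 26 by entries to 56 with antisense reads alone (38 higher and 18 lower in y w). The number over 10 points in sense share did so too (61 by entries), and the Spearman correlation of abundance lay between 0.845 and 0.897. The difference in pooled sense share, 6.18 points, became 0.339 by entries, 2.10 as the median over transposons, 6.59 without roo and 6.89 without the soma-dominant elements. The difference in the share of read copies was -6.91 points for germline-dominant, 4.79 for intermediate and 1.85 for soma-dominant elements. By entries these were -0.540, 3.81 and 1.79 points, and without roo -7.66, 5.08 and 1.95 points. For the 38 transposons over 2-fold, 444 of 450 alternative values kept their direction. Many of the 450 could not reverse, so this number is not read as support. Other minimum counts leave a value unchanged, and other scalings shift all elements by nearly the same amount, less than 2-fold. The values that reversed were 412 with sense reads alone (-0.50) and, by entries, Bari2 (-0.30), HB (-0.44), R1-2 (-0.10), S2 (-0.0197) and mariner2 (-0.16). The cause was not tested. No paired analysis was possible because each stock had 1 library, and for the same reason no library could be left out. Correlations were not recomputed under other scalings, which leave the Spearman correlation unchanged. The lower depth of w1118 limits scarce elements: the widest counting interval of a log2 difference spanned 1.15.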

Other observations

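The 3 transposons under the filter on low counts also had the higher CPM in y w by read copies, but they rest on few counts. Helitron, a rolling-circle DNA transposon, had 68 read copies in y w (1.92 CPM) and 2 in w1118 (0.220 CPM). BS4 had 154 read copies in y w (4.34 CPM) and 18 in w1118 (1.98 CPM). Penelope, a retroelement mobilised in hybrid dysgenesis of Drosophila virilis, had 15 read copies in y w (0.423 CPM) and 0 in w1118. Against a floor of 3 counts in w1118 the level of Penelope was at least 1.28-fold higher in y w, so its absence from w1118 shows little. By entries the log2 differences were 1.01 for Helitron, 1.05 for Penelope and -0.25 for BS4, so BS4 was lower in y w.

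The Aub library of w1118 allowed a comparison of strand within 1 stock. Aurora-element was 41.9% sense in Ago3 y w, 79.4% in Ago3 w1118 and 93.5% in Aub w1118. Accord2 was 41.6% sense in Ago3 y w, 63.2% in Ago3 w1118 and 84.2% in Aub w1118, so that for both elements Aub carried the larger sense share, the reverse of the pooled order in w1118. Invader2 was 42.9% sense in Ago3 y w, 75.3% in Ago3 w1118 and 78.8% in Aub w1118. Across 121 transposons the sense shares of Aub w1118 had a Spearman correlation of 0.031 with those of Ago3 y w and of 0.730 with those of Ago3 w1118, although 98 of the 121 differed by over 10 points from Ago3 y w and 95 from Ago3 w1118. These pairs share a library.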
